A study of Mus musculus with 38 samples.

Results

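The genes described here mark the endocrine cells of the stomach: Gast, Ghrl, Sst, Hdc, Chga, Chgb, Slc18a2 and Pdx1. All 8 were found on the array through the RefSeq transcript accession of their probes, with 9 probes in all, among 20018 genes with a symbol. They were chosen by function and not by a cut on measured values, but with earlier results of these data known. They were followed in the forestomach, with lung for comparison (18 mouse numbers occur in both tissues, and mouse 20 of D3 in lung alone), in adult male MutaMouse (a transgenic strain used in mutation assays) aged about 10 weeks. Each day for 28 days, mice were gavaged with olive oil alone (the D0 group) or with olive oil holding dibenz(a,h)anthracene (DBahA), a polycyclic aromatic hydrocarbon. The daily dose was 6.25 mg/kg-bw in the D1 group, 12.5 in D2 and 25 in D3, and the organs were collected 72 h after dosing ended. All mice carried the transgene of the strain, D0 included. The arrays covered lung of 5, 5, 4 and 5 mice from D0 to D3 and forestomach of 5, 5, 4 and 4, counted by mouse number, since a pair of D3 forestomach arrays carries the number 18. Whether that pair came from 1 animal is not stated. The value given throughout is the log2 ratio of tissue RNA (Cy5) to a reference RNA pooled from mouse cell lines (Cy3), so a value near 0 also arises where neither RNA rose above background.

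The stomach of the mouse has a forestomach, lined by squamous epithelium with no glands, and a glandular part made up of the corpus and, toward the duodenum, the antrum. Endocrine cells lie within the glands. G cells of the antrum make gastrin (Gast), which drives acid secretion, and the antrum also expresses the homeodomain factor Pdx1. X/A-like cells, most frequent in the corpus, make the hunger hormone ghrelin (Ghrl), D cells of corpus and antrum make the inhibitory peptide somatostatin (Sst), and enterochromaffin-like cells of the corpus make histamine through histidine decarboxylase (Hdc) and load it into vesicles through the monoamine transporter VMAT2 (Slc18a2). Chromogranins A and B (Chga, Chgb) are proteins of the secretory granule and are also made by neurons.

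The promoter sequences of 4 of the genes are shown because they share a motif. TGACGTCA, the cyclic AMP response element, was found in the window from 250 bases before to 50 bases after a transcription start in Sst, Chgb and Slc18a2. This was 3 of the 8 genes, beside 1.79% of all 32851 windows in the RefSeq promoter table, or 2.03% of its 27025 genes. Its first 6 letters, TGACGT, searched on both strands and so counting the longer motif as well, were found in Chga too, which made 4 of the 8 genes beside 8.37% of all genes. No window of Gast, Ghrl, Hdc or Pdx1 held either string. A match describes the letters only. The stretches from 120 bases before to 20 bases after the start are printed 5′ to 3′ along the gene from RefSeq (GRCm38.p6), with the match in capitals.
Sst, chr16:23890825-23890964, minus strand: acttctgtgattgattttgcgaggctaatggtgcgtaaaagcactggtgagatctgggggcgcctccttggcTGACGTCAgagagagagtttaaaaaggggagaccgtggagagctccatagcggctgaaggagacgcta
Chga, chr12:102554821-102554960, plus strand: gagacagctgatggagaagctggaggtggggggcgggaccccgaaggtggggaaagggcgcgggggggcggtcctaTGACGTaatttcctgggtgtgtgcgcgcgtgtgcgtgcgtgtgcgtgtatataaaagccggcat
Chgb, chr2:132781522-132781661, plus strand: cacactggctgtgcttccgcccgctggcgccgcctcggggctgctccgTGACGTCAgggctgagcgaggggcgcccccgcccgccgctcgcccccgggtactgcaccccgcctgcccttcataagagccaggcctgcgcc
Slc18a2, chr19:59260758-59260897, plus strand: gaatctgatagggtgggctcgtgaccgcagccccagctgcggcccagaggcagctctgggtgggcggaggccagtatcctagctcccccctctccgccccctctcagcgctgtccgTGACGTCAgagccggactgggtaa

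Before the results, the forestomach samples need to be described, since they fell into 2 sets that the labels do not give. The mean log2 ratio of 13 marker genes of glandular stomach (14 were listed, and Muc6 was not found) lay between 4.23 and 6.56 on 13 forestomach arrays. The remaining 6 arrays held 0.25 to 0.72. They are called arrays without glandular markers below, although some mucous markers were present on them at lower levels. Tff1 (1.18 to 4.00) and Muc5ac (1.01 to 1.65) were well above background on all 6, and Gkn2 (0.07 to 1.93) on 5. The 6 arrays without glandular markers were those of mice 2 and 5 (D0), 8 and 9 (D1), 15 (D2) and the first array of mouse 18 (D3). Each dose group therefore held at least 1 array of either set, and the 2 arrays labelled mouse 18 fell on opposite sides. The first of them lay on the slide that held lung of mouse 18 and the second on the slide that held lung of mouse 20. Atp4b, a subunit of the gastric proton pump of parietal cells, had a median log2 ratio of 5.97 with and 0.04 without glandular markers. Squamous keratins were at like levels on both sets, with Krt5 at a median of 3.47 and 3.50, and at most 0.14 on any lung array. Markers of duodenum had a list mean of 2.45 on the array of mouse 6 (D1), where Fabp2, the intestinal fatty acid binding protein, reached 6.99. On that array 4 of the 7 duodenal genes were well above background. Cdx2 and Muc2 were so on 0 of the 13 arrays with glandular markers, and Cdx1 was at most 0.25 on them. The surfactant gene Sftpc stood at 2.93 on the forestomach array of mouse 17 (D3). Of the 5 lung markers, Sftpc was well above background on 3 of the 13 and 1 of the 6 arrays. Scgb1a1 was so on all 13 and all 6, at medians of 3.92 and 4.34. Cldn18 was so on 12 and 0, Sftpb on 1 and 0, and Ager on 0 and 0. The share of probes that Feature Extraction marked as well above background in Cy5 ranged from 30.1% to 63.8% over the 38 arrays, and it was 53.9% to 63.8% on the slide that carried mice 2, 7, 12 and 17.

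The antral genes stayed near 0 on every forestomach array, whether or not glandular markers were present. Gast ranged from -0.15 to 0.51 on the 13 arrays with glandular markers, with a median of 0.10, and from -0.05 to 0.36 on the 6 without. In lung it ranged from -0.15 to 0.49. It was well above background on 5 of 19 forestomach and 6 of 19 lung arrays, and 4 of those 5 and 4 of those 6 were on the slide with the highest share of probes above background. Pdx1 ranged from -0.24 to 0.31 over all forestomach arrays. It was well above background on 2 of 19 forestomach arrays, both on that slide, and on 0 of 19 lung arrays. No fold change is given for either gene, since most values lay at background.

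**Figure D1:**
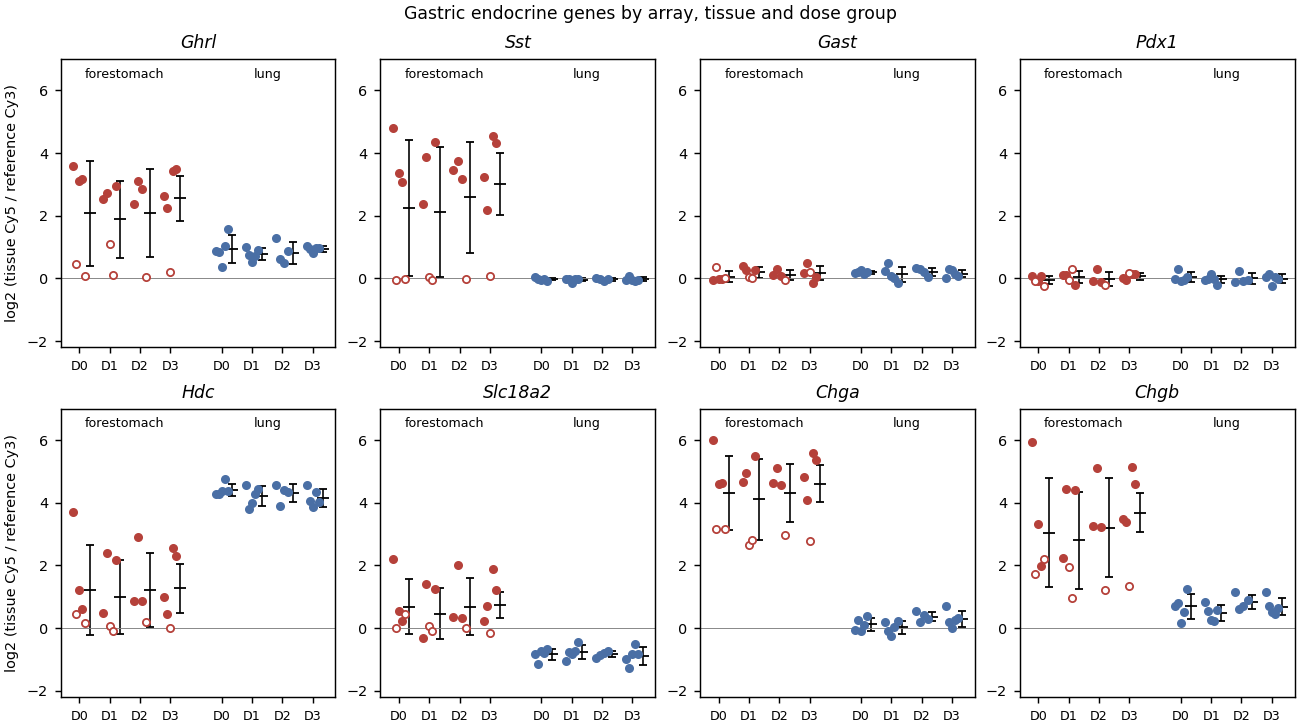
The log2 ratio of tissue over reference RNA (y) is plotted for each of the 8 genes by dose group (x), in forestomach (red) and lung (blue), 1 point per array, with the mean ± SD over mice as a black bar and open points for the 6 forestomach arrays without glandular markers. Sst and Ghrl split into 2 separate levels within every forestomach dose group, and Gast and Pdx1 stay near 0. In the ratio plotted, Hdc is higher on every lung array than on any forestomach array.

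The hormone transcripts of somatostatin and ghrelin were present on every forestomach array with glandular markers and near 0 on most of the others. Sst, at D0, was 4.80, -0.04, 3.36, 3.08 and -0.01 in mice 1 to 5. At D1 it was 2.36, 3.88, 0.03, -0.06 and 4.36 in mice 6 to 10. At D2 it was 3.46, 3.76, 3.18 and -0.03 in mice 11, 12, 13 and 15. At D3 it was 3.23 and 2.20 in mice 16 and 17, 0.07 and 4.56 on the first and second array of mouse 18, and 4.32 in mouse 19. The 13 arrays with glandular markers held 2.20 to 4.80 and the 6 without held -0.06 to 0.07, none of them well above background, so Sst took either of 2 levels with nothing between. In bulk tissue, fewer cells of a type and less RNA per cell cannot be told apart.

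Ghrl at D0 was 3.59, 0.46, 3.096, 3.18 and 0.06 in mice 1 to 5. At D1 it was 2.53, 2.72, 1.11, 0.11 and 2.94 in mice 6 to 10. At D2 it was 2.37, 3.103, 2.86 and 0.04 in mice 11, 12, 13 and 15, and at D3 it was 2.64 and 2.25 in mice 16 and 17, 0.22 and 3.43 on the arrays of mouse 18, and 3.49 in mouse 19. The lowest array with glandular markers (2.25, mouse 17) stood above the highest without them (1.11, mouse 8). Unlike Sst, Ghrl was well above background on 3 of the 6 arrays without glandular markers and on all 19 lung arrays, where it ranged from 0.35 to 1.59.

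The genes of histamine cells also differed among the arrays with glandular markers, where Hdc ranged from 0.45 to 3.70. Hdc at D0 was 3.70, 0.45, 1.20, 0.60 and 0.17 in mice 1 to 5. At D1 it was 0.49, 2.38, 0.05, -0.10 and 2.16 in mice 6 to 10. At D2 it was 0.87, 2.91, 0.87 and 0.19 in mice 11, 12, 13 and 15, and at D3 it was 1.00 and 0.45 in mice 16 and 17, 0.01 and 2.56 on the arrays of mouse 18, and 2.31 in mouse 19. Values above 2 were thus found in mice 1, 7, 10, 12 and 19 and on the second array of mouse 18, while mice 4, 6 and 17, whose Sst lay between 2.20 and 3.08, held Hdc between 0.45 and 0.60. The lowest of these, in mouse 17, was level with the highest without glandular markers (0.45, mouse 2). Slc18a2 was highest on the same 6 arrays. It ranged from 1.20 to 2.19 there, from -0.33 to 0.69 on the other 7 arrays with glandular markers, and from -0.17 to 0.45 on the 6 without. A second probe of Slc18a2 was well above background on 5 of these 13 arrays and on 0 of the other 6, with values up to 1.62.

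Mast cells also make histamine, and 4 of 9 mast cell markers (Cpa3, Tpsb2, Mcpt4 and Kit) were well above background on all 19 forestomach arrays, whereas Ms4a2 was on 0 of 19. The list mean of 9 mast cell genes was 1.02 to 2.59 with and 0.80 to 1.62 without glandular markers. The mast cell carboxypeptidase Cpa3 had medians of 3.20 and 2.92, whereas the mucosal mast cell protease Mcpt2 had medians of 2.77 and 0.04 and, like Mcpt1, was well above background on 0 of the 6 arrays without glandular markers. The part of mast cells in the Hdc and Slc18a2 values was not tested.

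The chromogranins were measured on every forestomach array, at a raised level where glandular markers were present. Chga at D0 was 5.99, 3.15, 4.61, 4.63 and 3.15 in mice 1 to 5. At D1 it was 4.67, 4.95, 2.65, 2.81 and 5.48 in mice 6 to 10. At D2 it was 4.61, 5.09, 4.57 and 2.98 in mice 11, 12, 13 and 15, and at D3 it was 4.81 and 4.08 in mice 16 and 17, 2.77 and 5.58 on the arrays of mouse 18, and 5.37 in mouse 19. The sets did not overlap, at 4.08 to 5.99 with and 2.65 to 3.15 without glandular markers. Chga was thus above its lung range of -0.25 to 0.71 even where Sst was at background. In the background-subtracted Feature Extraction ratio the Chga sets did overlap. They ran from 4.68 (mouse 17) to 6.21 (mouse 4) with and from 4.05 (mouse 2) to 5.24 (mouse 15) without glandular markers. Chgb ranged from 1.99 to 5.95 with and from 0.96 to 2.21 without glandular markers, so these sets overlapped, and the highest values were those of mice 1 (5.95) and 12 (5.11) and of the second array of mouse 18 (5.14). Neuronal markers had a list mean of 0.51 to 1.62 with and 0.53 to 1.10 without glandular markers, and 0.21 to 0.54 in lung. Their part in the chromogranin level was not tested.

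In all, 3 of the 8 genes (Sst, Ghrl and Chga) were higher on each of the 13 arrays with glandular markers than on any of the 6 without. Over all probes with a value on these arrays, 0.751% showed that pattern. In the Feature Extraction ratio, Sst and Ghrl kept the pattern and Chga lost it, and the share over all probes was not computed. No test is attached, since the sets were drawn from the arrays themselves.

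**Figure D2:**
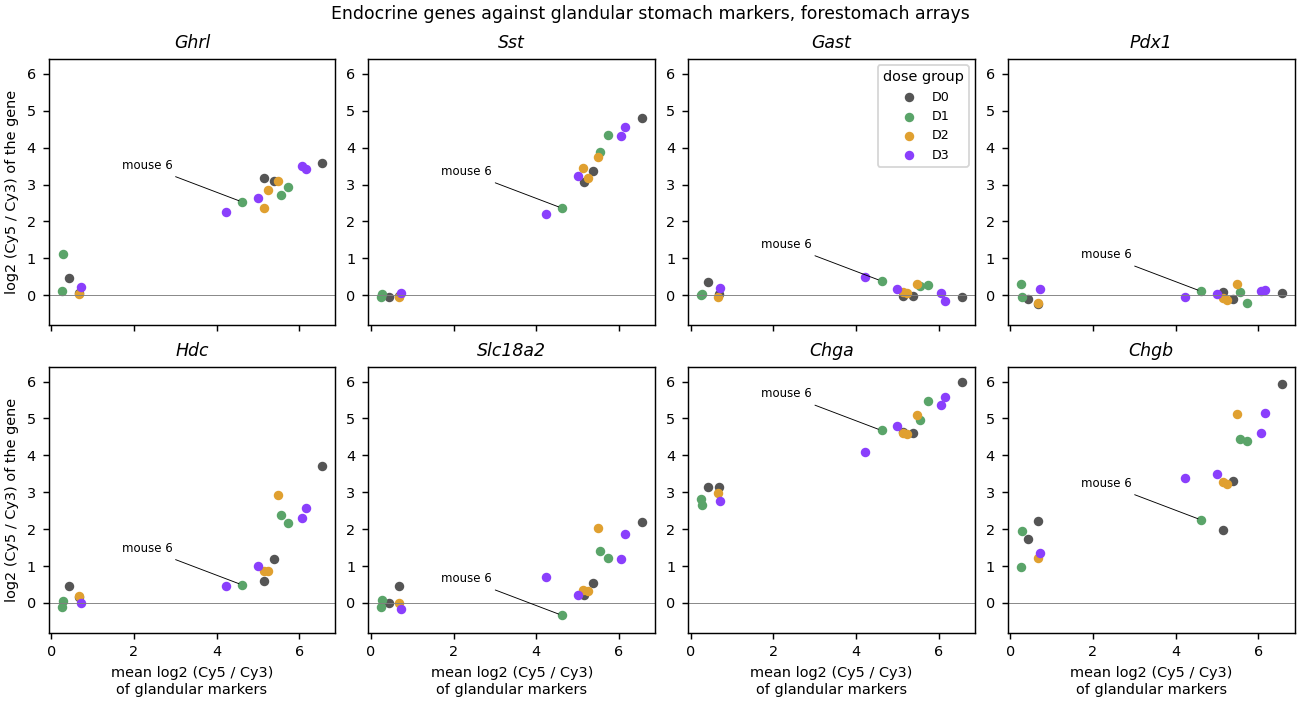
The log2 ratio of each gene (y) is plotted against the mean log2 ratio of the 13 glandular stomach markers (x) on the 19 forestomach arrays, coloured by dose group, with mouse 6 marked. Sst and Chga rise along the x axis among the 13 arrays on the right, Hdc, Slc18a2 and Chgb rise mainly over its upper part, and Gast and Pdx1 stay near 0 throughout.

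Among the 13 mice with glandular markers (mouse 18 by its second array), the amount of each endocrine transcript was compared with the glandular marker mean across all dose groups. In total, 15 relations were computed, and the adjusted p-values are Benjamini-Hochberg values over these 15 from two-sided permutation tests. Sst followed the markers closely, with Pearson's r = 0.97 (permutation p = 1e-05, the smallest the permutations can give, adjusted p = 0.00015) and Spearman's rho = 0.93 (permutation p = 3e-05, adjusted p = 0.00045). For Chga, r was 0.93 (permutation p = 2e-05, adjusted p = 0.00015) and rho 0.81 (permutation p = 0.0014, adjusted p = 0.0052). For Hdc, r was 0.88 (permutation p = 6e-05, adjusted p = 0.0003) and rho 0.88 (permutation p = 0.00022, adjusted p = 0.0016). For Ghrl, r was 0.87 (permutation p = 9e-05, adjusted p = 0.00034) and rho 0.84 (permutation p = 0.00084, adjusted p = 0.0042). Chgb had r = 0.79 (permutation p = 0.0015, adjusted p = 0.0046) and rho = 0.77 (permutation p = 0.003, adjusted p = 0.0076). Slc18a2 had r = 0.76 (permutation p = 0.0021, adjusted p = 0.0053) and rho = 0.79 (permutation p = 0.002, adjusted p = 0.0061).

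Without mice 1 and 17, which lay farthest from the median of the marker mean, r was 0.96 for Sst, 0.84 for Chga, 0.81 for Hdc, 0.76 for Ghrl, 0.82 for Chgb and 0.83 for Slc18a2. After slide means were removed, r for these 6 genes lay between 0.80 (Ghrl) and 0.96 (Hdc). No slide held 6 of these mice, so no value within a slide is given. No relation was computed with the background-subtracted Feature Extraction ratio, in which the order of the mice by Sst differed. In that ratio Sst was 4.60 in mouse 6 and 3.74 in mouse 12, beside 2.36 and 3.76 here. Mouse 17 was lowest and mouse 1 highest in both ratios. How far the relations depend on the background treatment was not tested.

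The antral genes differed from this. Pdx1 had r = 0.24 with the markers (permutation p = 0.44, adjusted p = 0.49) and rho = 0.25 (permutation p = 0.4, adjusted p = 0.49). Gast had r = -0.67 (permutation p = 0.011, adjusted p = 0.021), but rho did not pass after adjustment (rho = -0.60, permutation p = 0.034, adjusted p = 0.065). Its r was -0.45 without mice 1 and 17. After slide means were removed it was -0.63 (permutation p = 0.021, adjusted p = 0.04), and -0.67 without mice 4 and 17, which then lay farthest out. The p-values after slide means were removed, here and below, came from shuffles across all 13 mice. They did not allow for the means of 5 slides taken out, so they are too small. Of the 7 relations of Gast with the other genes, the one with Ghrl passed (r = -0.72, permutation p = 0.0065, adjusted p = 0.014, and rho = -0.72, permutation p = 0.0073, adjusted p = 0.016), and its r was -0.53 without mice 6 and 17. After slide means were removed it no longer passed (r = -0.57, permutation p = 0.041, adjusted p = 0.059), while Gast with Slc18a2 did (r = -0.65, permutation p = 0.017, adjusted p = 0.037), though not by rho (rho = -0.56, permutation p = 0.049, adjusted p = 0.082). Gast was well above background on 3 of these 13 arrays, so these ratios are mostly those of background signal.

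The genes most like each hormone over these 13 mice, by Pearson's r among 16589 probes, are given as a description. For Sst they were the neuropeptide W gene Npw (r = 0.97), Cyp2c65 (r = 0.97) and Ces2c (r = 0.97), the last pair being a cytochrome P450 and a carboxylesterase. For Ghrl they were the choline kinase Chka (r = 0.97), the gasdermin Gsdma2 (r = 0.96) and Tbc1d16 (r = 0.95). For Gast, whose ratios were those of background, they were Thap1 (r = 0.91), Rad17 (r = 0.88) and Ctsw (r = 0.87).

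Exposure to DBahA changed none of the 8 genes past the threshold in forestomach at any dose. A call needed an adjusted p of 0.05 or less in limma together with a fold change of 1.5 or more. Against D0, 0 of 8 genes were called at D1, D2 or D3, with 0 of 8 at an unadjusted p under 0.05 at each dose. Of all 55681 probes, 0% were called at D1, 0% at D2 and 0% at D3. At D3, the change of Sst was 0.78 ± 1.14 (SE), from a mean of 2.24 ± 2.16 (SD, n = 5) at D0 to 3.02 ± 0.99 (SD, n = 4), where limma's adjusted p was 1.00. The D3 values take the pair of arrays labelled mouse 18 as their average, with Sst at 0.07 and 4.56. The SDs of D0 and D3 therefore do not measure the same spread. For Ghrl the change was 0.48 ± 0.81 (SE), from 2.08 ± 1.67 (SD, n = 5) to 2.55 ± 0.71 (SD, n = 4). The other changes at D3 were 0.64 ± 0.90 (SE) for Chgb, 0.30 ± 0.66 for Chga, 0.06 ± 0.48 for Slc18a2 and 0.04 ± 0.73 for Hdc, each smaller than its error. The median change over these 6 genes at D3 was 0.39, beside 0.00072 over all probes, and the 3 doses share the same D0 mice. At D1, all 6 of these genes lay below D0, with a median change of -0.21, and at D2 4 of 6 lay above it, with a median of 0.01. At these doses too, each change was smaller than its error.

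These errors include the split by glandular markers, since a dose group mean depends on how many of its arrays carry them. Among mice with glandular markers alone (3, 3, 3 and 4 mice of D0 to D3), the errors at D3 were 0.29 for Ghrl and 0.61 for Sst, and the changes turned to -0.33 for Ghrl, -0.17 for Sst, -0.26 for Hdc and -0.11 for Chga, while Chgb stood at 0.40 and Slc18a2 at 0.01. Again, 0 of 8 genes were called in this subset. Ghrl averaged 3.29 ± 0.26 (SD, n = 3) at D0, 2.73 ± 0.20 (n = 3) at D1, 2.78 ± 0.38 (n = 3) at D2 and 2.95 ± 0.61 (n = 4) at D3 in these mice, and its changes of -0.56 ± 0.31 (SE) at D1 and -0.51 ± 0.31 at D2 did not pass either (limma adjusted p = 0.65 and 0.75). The changes at D3 over all mice also depended on the arrays labelled mouse 18. With the first of them alone, Sst changed by 0.21, Chgb by 0.16, Ghrl by 0.07, Chga by -0.05, Slc18a2 by -0.20 and Hdc by -0.28. With the second alone, the values were 1.34 for Sst, 1.11 for Chgb, 0.88 for Ghrl, 0.66 for Chga, 0.32 for Slc18a2 and 0.36 for Hdc. As separate replicates they gave 0.64 for Sst and 0.33 for Ghrl, and no gene was called in any of these settings.

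**Figure D3:**
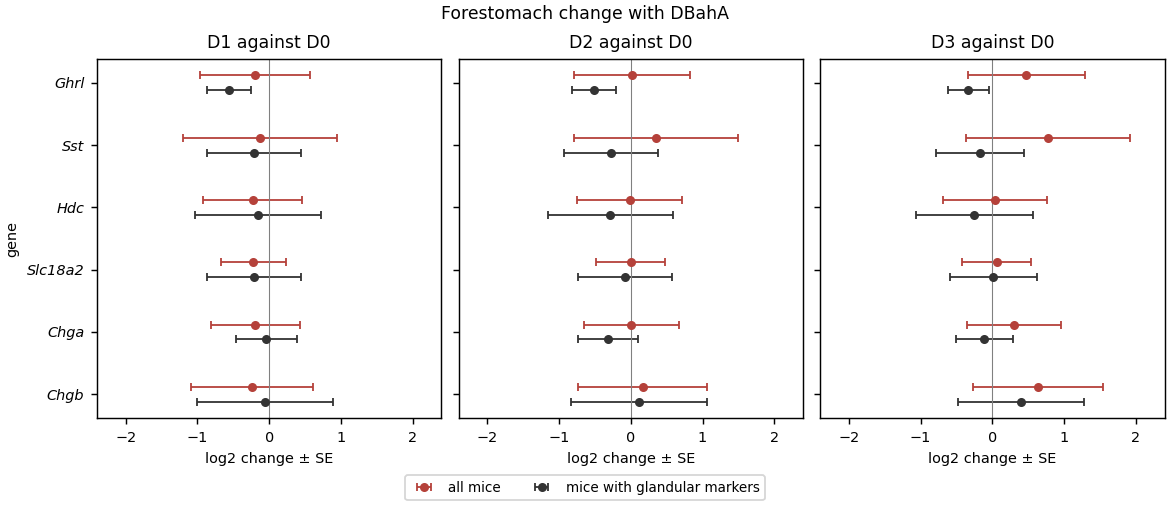
The log2 change of 6 endocrine genes in forestomach (x, ± SE) is plotted for each DBahA dose against D0, over all mice (red) and over the mice with glandular markers (black). No gene passed the threshold in either set, and at D3 the changes of Ghrl, Sst, Hdc and Chga lie right of 0 over all mice and left of 0 in the mice with glandular markers.

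In lung, 0 of 8 genes were called at any dose, with 0 of 8 at an unadjusted p under 0.05 at each dose, beside 0.14% of all probes at D1, 0.264% at D2 and 0.639% at D3 (limma). The smallest adjusted p of the 8 genes there was 0.62, for Hdc at D3. No difference between forestomach and lung in the response at D3 was called for any of the 8 genes by limma's test of that difference (0 of 8 called, 0 of 8 at an unadjusted p under 0.05, smallest adjusted p 1.00), beside 0.172% of all probes. For the 6 genes other than Gast and Pdx1, its errors ran from 0.50 to 1.12 (SE), so differences of that size could have been missed.

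The tissues themselves differed at D0, where 5 of 8 genes were called, beside 16.2% of all probes. In forestomach 4 of the genes were higher, beside 7.6% of all probes, and 1 was lower, beside 8.62%. Chga was higher by 4.19 ± 0.45 (SE, limma adjusted p = 4.1e-09), with 4.31 ± 1.19 (SD, n = 5) in forestomach and 0.12 ± 0.21 (SD, n = 5) in lung, where it was well above background on 2 of 5 arrays. Chgb was higher by 2.35 ± 0.63 (SE, limma adjusted p = 0.0038), Sst by 2.27 ± 0.77 (SE, limma adjusted p = 0.025) and Slc18a2 by 1.52 ± 0.34 (SE, limma adjusted p = 0.00063). In lung, Sst and Slc18a2 were well above background on 1 of 5 arrays each. The call of Sst depended on the mice with glandular markers. Without mouse 1, limma's adjusted p was 0.116, without mouse 3 it was 0.0746 and without mouse 4 it was 0.0648. The second probe of Slc18a2 gave a difference of 0.22 and was not called (limma adjusted p = 0.48). Ghrl, higher by 1.14 ± 0.57 (SE), did not pass (limma adjusted p = 0.14), but it passed without mouse 2 (0.043) or mouse 5 (0.023), the D0 mice whose arrays lacked glandular markers. With arrays centred on their median in place of loess, Sst (0.84, limma adjusted p = 0.21) and Slc18a2 (0.93, limma adjusted p = 0.076) were no longer called, and the difference of Ghrl turned to -0.23.

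Hdc ran the other way. It was 4.26, 4.27, 4.36, 4.74 and 4.38 in lung of D0 mice 1 to 5, a mean of 4.41 ± 0.20 (SD, n = 5), and 1.23 ± 1.44 (SD, n = 5) in forestomach, a difference of -3.18 ± 0.51 (SE, limma adjusted p = 6.5e-06). Every one of the 19 lung arrays, at 3.78 to 4.74, was above the highest forestomach array (3.70, mouse 1). In the Feature Extraction ratio, forestomach of mouse 1 (4.74) lay within the lung range of 4.03 (mouse 7) to 4.93 (mouse 4). Every other forestomach array lay below that range. Of the 9 mast cell markers, 3 were well above background on at least 18 of 19 lung arrays, with medians of 5.24 (Kit), 0.59 (Mcpt4) and 0.39 (Tpsb2). Cpa3 was on 9 of 19 (median 0.33), Fcer1a on 8, Mcpt2 on 4 and Cma1 on 1, and Mcpt1 and Ms4a2 on 0. Slc18a2 ranged from -1.28 to -0.43 in lung. The source of Hdc in lung was not tested.

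Another 37 genes of endocrine cells, listed by role with earlier results of these data known, were followed beside the 8, and 36 were found on the array (Hrh2, a histamine receptor, was not). In forestomach, 0 of 36 were called at D1, D2 or D3, with median changes of 0.01, 0.07 and 0.04, beside medians of -0.0024, 0.0019 and 0.00072 over all probes. At D0, 8 of 36 were called higher in forestomach than in lung and 0 lower, beside 7.6% and 8.62% of all probes. Among these were 6 of 9 genes for granule proteins and peptide processing: carboxypeptidase E (Cpe, 4.60 ± 0.36 SE), secretogranins Scg2, Scg3 (1.15 ± 0.21) and Scg5 (1.37 ± 0.27), the proconvertase inhibitor Pcsk1n (0.97 ± 0.15) and the granule peptide precursor Vgf. The other two were Tac1, the substance P precursor, and Tph1, which makes serotonin in enterochromaffin cells. No size is given for 4 of these genes, since Tac1 and Tph1 were well above background on 0 of 19 lung arrays, Scg2 on 1 and Vgf on 2. Of 6 receptors and partners, 0 were called, and those with the largest change at D3 in forestomach were the somatostatin receptors Sstr2 and Sstr1. These were well above background on 3 and 2 of the 13 forestomach arrays with glandular markers and on 0 of the 6 without, so their ratios are mostly those of background and no size is given. Of 11 transcription factors, 0 were called. The largest changes at D3 there were those of Isl1 (0.14 ± 0.49 SE), well above background on 11 of the 13 and 1 of the 6 arrays, and of Neurog3, which was so on 5 and 1 and is given no size.

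Of the 8 companion genes called between the tissues, none was higher on all 13 arrays with glandular markers than on all 6 without. Scg2 had a median of 3.15 with and 2.52 without them, Cpe of 1.62 and 2.02, and Tac1 of 3.80 and 3.98. Among the 36 genes, 1 did show that pattern, beside 0.751% of all probes. It was Gcg, the glucagon precursor, at medians of 0.64 and -0.04. The genes in the next sentences, like Gcg, were chosen after their values were seen. The islet factor Isl1, Insm1, a transcription factor of endocrine progenitors, and Cckbr, the gastrin receptor, reached 2.70 (mouse 12), 2.29 (mouse 1) and 2.22 (mouse 1), and were at most 0.45, 0.09 and 0.21 on the arrays without. Cckbr was well above background on 6 of the 13. On the array of mouse 6, with 4 of the 7 duodenal markers above background, Sct, the secretin precursor, stood at 2.67. Cck stood at 2.63 and Gip at 0.89 there. These were the highest values of these 3 hormones on any forestomach array, while Gast was 0.39.

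**Figure D4:**
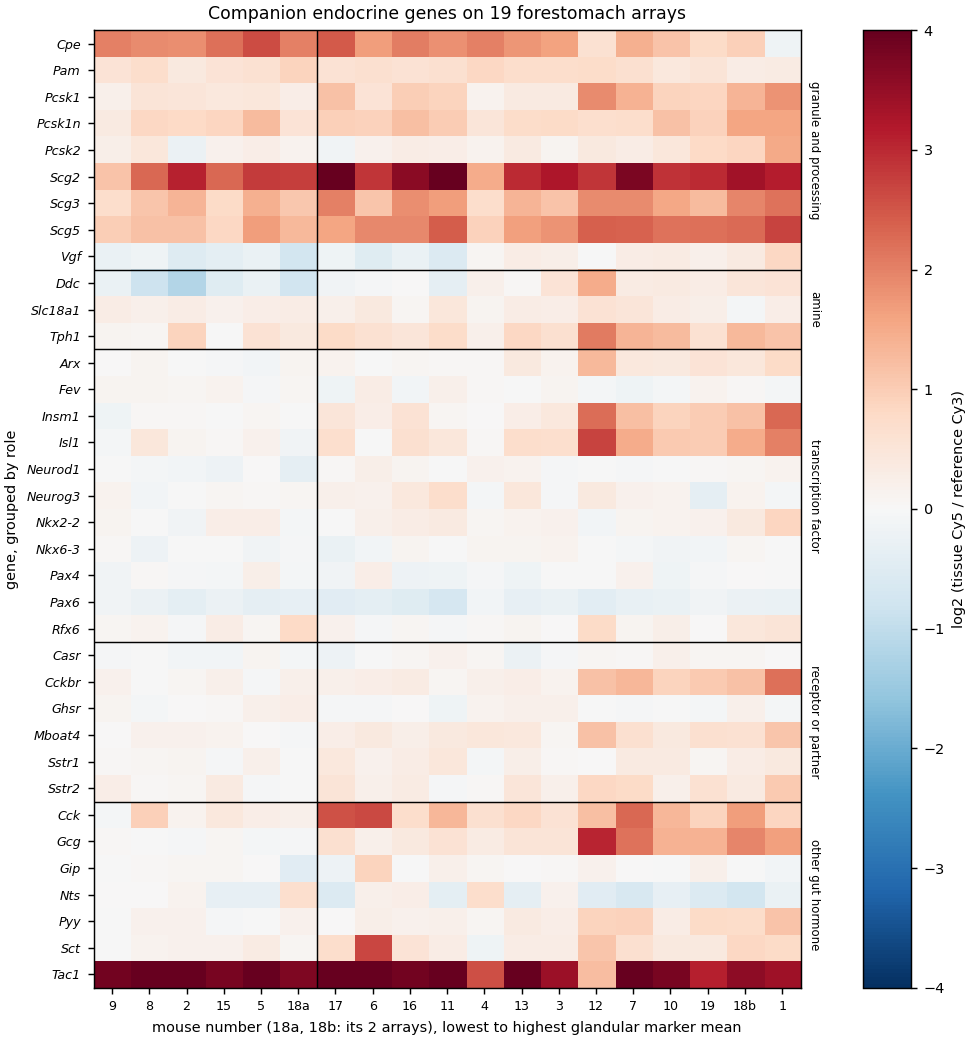
The log2 ratio (colour, values beyond 4 drawn at 4) of 36 endocrine companion genes (rows, grouped by role) is shown on the 19 forestomach arrays (columns), ordered from the lowest to the highest glandular marker mean, with a vertical line between the 6 arrays without and the 13 with glandular markers. Scg2, Cpe and Tac1 are high on both sides of the line, Gcg, Insm1, Isl1 and Cckbr are highest in the 6 columns at the right, and Sct and Gip stand out in mouse 6.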

How the data were processed

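RNA of lung and forestomach was measured on 38 dual-colour Agilent arrays, with mouse tissue in Cy5, a common reference in Cy3 and no dye swap, so a dye effect of a probe stays in its ratio but not in differences between groups. Per the study's methods, the RNA came from random sections of tissue. The deposited scanner files hold the spot intensity on a linear scale, made by the authors with Feature Extraction 10.7.3.1, and its log10 ratio, which per the file headers is background-subtracted and dye-normalized. A value table of log2 ratios was deposited too, with its scale not stated. Its columns had slopes of 0.990 to 0.998 against the ratios computed here and medians of -0.04 to -0.02, and it was used as an alternative.

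As in the study's methods, median intensities were normalized by loess within each array with no background subtracted, which leaves the ratios of dim probes near 0. Control spots and outlier spots were left out (372 values emptied), no spot was saturated, and spots were averaged to 55681 probes. Probes were named by accession through RefSeq (GRCm38.p6), which matched 26413. The array design is on mm9, so promoter coordinates are those of RefSeq only. Where a gene had several probes, the one with the highest mean Cy5 stands for it. The 2 forestomach arrays labelled mouse 18 were averaged to 1 replicate before fitting. Whether they came from 1 animal is not given in the sources used here, and the n, means and SDs of D3 forestomach rest on this. limma 3.58.1 (R 4.3.3) was fitted to each tissue over all dose groups, and the tissues were compared in a fit over all arrays, with Benjamini-Hochberg adjustment over all probes. The study's own test, MAANOVA, was not used. Permutation tests used 100000 resamples in Python 3.11.15. The fits were tested on simulated data with known changes.

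Arrays of lung and forestomach share mouse numbers, which were taken to be the same animals. Deviations from group means correlated between tissues at r above 0.1 for 17 of 18 mice (0.08 to 0.37), and mouse as a block was an alternative. Both tissues of a mouse number lay on the same slide, apart from the second forestomach array of mouse 18. These correlations therefore cannot tell a shared animal from a shared slide. Arrays lay on 5 slides scanned on 3 days, each slide with at least 3 dose groups and both tissues, and slide and scan day were also tried as blocks. The 8 genes, the gene lists and the rule for genes named (all 8, every listed gene called in any contrast or otherwise the pair with the largest change at D3 by role, and the 3 most like Gast, Ghrl and Sst) were chosen with earlier results of these data known. Arrays carry no read depth, and their number limits the precision.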

Additional observations from a re-analysis of the deposited data

Results flagged for a closer look

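In 7 of 64 combinations of gene, tissue and dose group, 1 mouse stood apart from the others of its group by Dixon's criterion, which chance gives in about 1 of 20 groups. In forestomach, Sst in mouse 15 (D2) was -0.034, against 3.18 to 3.76 in the other mice, on an array without glandular markers. Slc18a2 in mouse 1 (D0) was 2.19, against at most 0.54 in the others, and this array had the highest glandular marker mean of all. Gast in mouse 2 (D0) was 0.36, against -0.04 to 0.03. In lung, Hdc in mouse 4 (D0) was 4.74, against 4.26 to 4.38. The remaining values lay near background, with Pdx1 at 0.25 in lung of mouse 12 (D2), Sst at -0.13 in lung of mouse 8 (D1) and Sst at 0.076 in lung of mouse 17 (D3).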

How the results depend on the processing

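The counts of genes called with dose (0 in each tissue and at each dose) and the count for the D3 response between tissues (0) held under every alternative run. For D0 forestomach against lung, 5 genes were called with mouse as a replicate block too, and 4 to 6 without 1 mouse. Median centring gave 3, as Sst (0.84) and Slc18a2 (0.93) were lost and the change of Ghrl turned to -0.23. It also moved the median change at D3 in forestomach of 15199 probes above background on all arrays from 0.016 to 0.71. With only the D0 forestomach mice with glandular markers, an alternative added after seeing the data, 6 were called. Mouse as a replicate block changed no other call.

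None of the changes at D3 in forestomach was called under any alternative, and several turned sign. With normexp, Hdc was -0.011. With the Feature Extraction ratio, Chga was -0.14, Chgb -0.090 and Slc18a2 -0.0077. With the first array of mouse 18, Hdc was -0.28, Chga -0.047 and Slc18a2 -0.20. With the glandular marker mean as a covariate, Ghrl was -0.072, Sst -0.0030, Hdc -0.34, Chga -0.14 and Slc18a2 -0.14. In mice with glandular markers, Ghrl was -0.33, Sst -0.17, Hdc -0.26 and Chga -0.11. With the second array of mouse 18, Sst was 1.34, Chgb 1.11, Ghrl 0.88, Chga 0.66, Hdc 0.36 and Slc18a2 0.32. With slide as a block, Chgb was 1.08, Slc18a2 0.42 and Hdc 0.40. Leaving out 1 mouse gave the highest value of each gene without D0 mouse 1. The lowest came without D0 mouse 2 for Sst (0.21 to 1.42), Chga (0.015 to 0.72), Chgb (0.31 to 1.36) and Slc18a2 (-0.11 to 0.44), without D0 mouse 5 for Ghrl (-0.029 to 0.85) and without D3 mouse 19 for Hdc (-0.31 to 0.66). The cause was not tested. Over all 3 doses, 0 of 488 alternative values in forestomach were called. Of 15 relations, 8 passed in the main setting, and also 8 with the deposited table. The Feature Extraction ratio was not tried for the relations. After slide means were removed, 8 passed again but not the same ones, as Gast with Ghrl was lost (adjusted p = 0.059, permutation) and Gast with Slc18a2 was gained (adjusted p = 0.037, permutation). The shuffles of that setting did not allow for the slide means taken out, so its p-values are too small and its count may be too high. Signal over background limits Gast and Pdx1 throughout.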
